A study of Drosophila melanogaster with 20 samples.

Results

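RNA of whole Drosophila melanogaster larvae of the I172G line was compared with RNA of larvae of the SAMC-null line, in 5 libraries each. Both lines carry changes in the gene of the carrier that moves S-adenosylmethionine (SAM) into mitochondria. All larvae were 4 days old, were kept at 25 °C and had the wDah genetic background. The label of the I172G line gives the genotype DmSAMC.I172G and calls it a mild mutant, and the label of the SAMC-null line gives DnSAMC.M1fs;M39* and calls it severe and null. The comparison used 10 of the 20 libraries of the series. The other libraries came from control larvae with an unchanged carrier and from the P223L line (DmSAMC.P223L), called severe, and their values are set beside some results as a description. The labels used here do not give the zygosity of the carrier changes, the sex of the larvae or the number of larvae in a library, and they do not say whether libraries came from separate cultures. Each p-value therefore measures the spread between these libraries, and a difference due to the carrier cannot be told apart from any other difference between the lines.

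SAM is the main methyl donor of the cell and is made in the cytosol from methionine. The carrier brings it across the inner mitochondrial membrane, where enzymes use it to methylate mitochondrial RNA, to make coenzyme Q and to make lipoic acid, a cofactor of several oxidative enzymes. In flies, the larval stages are a time of growth. The fat body stores protein and fat, the gut and muscles enlarge by growth of their cells, and imaginal discs and neuroblasts divide. Pulses of the steroid hormone ecdysone time the moults, the making of salivary glue and the start of metamorphosis.

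Of 14081 genes in the joined tables, 12079 reached a normalised count of 10 in 5 or more of the 10 libraries and were tested. At the edge of this filter, CG7370 was kept with a fifth-highest value of 10.0 (means of 2.77 in I172G and 13.1 in SAMC-null), and Trissin was left out with 9.996 (means of 5.65 and 18.9). Of the tested genes, 763 reached the filter through the I172G libraries alone and 126 through the SAMC-null libraries alone. Here alone means that no library of the other line reached 10. Such genes could be called in 1 direction only, and where no number of them is given beside a list, it held at most 2. The normalised counts of a library summed to 32994074 to 36610401 in I172G and to 22092107 to 22851437 in SAMC-null. Of these sums, 23.7 to 25.5% and 14.2 to 17.1% fell on the 10 genes with the highest values. Across genes, which do not count as independent replicates, Pearson's r of log2 values was 0.978 to 0.989 among I172G libraries, 0.989 to 0.992 among SAMC-null libraries and 0.749 to 0.785 between the lines. The lines thus lay far apart, and the first principal component, with 92.1% of the variance, separated them. On the second component, with 1.74%, I172G replicate 1 lay at 35.43 and the other I172G libraries at -25.27 to 10.39. That library stood apart in genes of tanning and of the ecdysone response, whose values are given with and without it, and what set it apart was not tested.

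Most genes differed between the lines. Fitted with limma on log2(value + 1), 10007 genes (82.8%) passed an adjusted p of 0.05, of which 5211 were higher in I172G (43.1% of the genes tested) and 4796 were lower (39.7%). With a difference of at least 2-fold, 2870 genes were higher (23.8%) and 2076 lower (17.2%). A difference of at least 16-fold was more often an increase, with 685 genes higher in I172G and 91 lower. For 8879 genes (73.5%) the libraries of the lines did not overlap. The median log2 fold change of all tested genes was 0.04, and the median standard error was 0.093. Here and below a log2 fold change is I172G minus SAMC-null on log2(value + 1), which understates the difference of genes with low values, and its error is the SE of the fit. A value with ± and no other unit is such a log2 fold change with its SE, and a level is a normalised count. Counts of list members are to be read against the shares above, since a list in which 43.1% of members are higher and 39.7% lower is like the genes at large.

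One choice of scale bears on all small differences. On the deposited scale the median gene hardly differs, while the summed value of an I172G library averages 1.55 times that of a SAMC-null library. When each library was scaled to the same sum, log2 fold changes shifted by -0.63 at the median, and 28.8% of called genes were higher in I172G in place of 52.1%. Where the median of a list changes its sign under that scaling, it is said beside the result. In whole larvae, fewer cells of a type and less RNA per cell cannot be told apart.

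**Figure D1:**
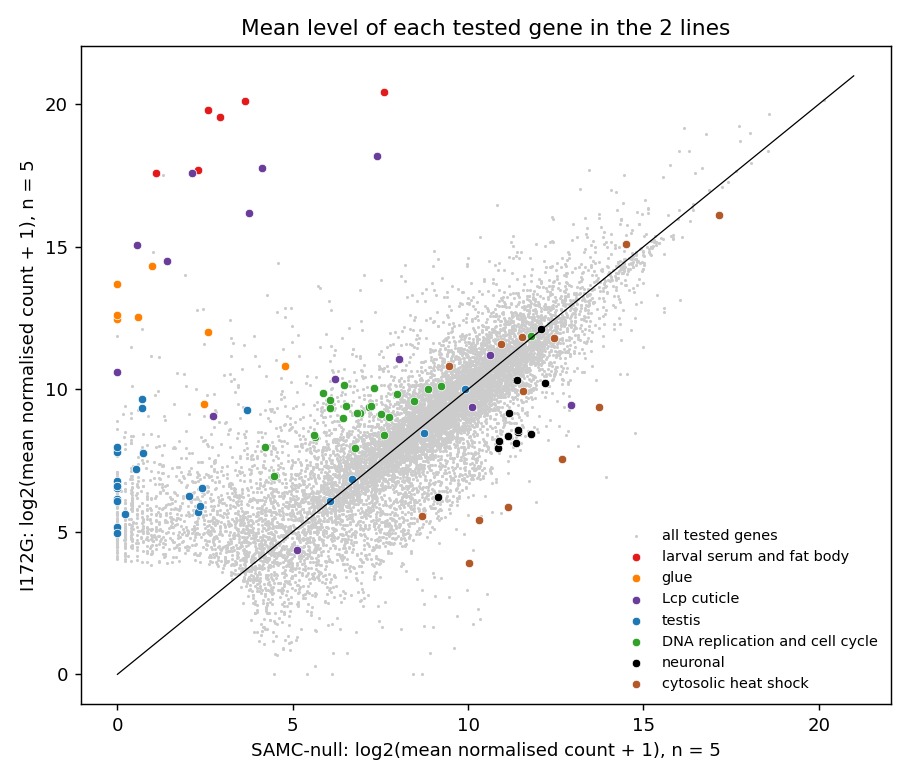
Mean level of each tested gene in SAMC-null (x axis) and I172G (y axis), as log2 of the mean normalised count of 5 libraries plus 1; the line marks equal levels. The larval serum and fat body proteins lie near the top left, at means of 195960 to 1409882 in I172G and 1.16 to 195.3 in SAMC-null, while most neuronal genes lie below the line.

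The transcript of the carrier was present in both lines. CG4743 (FBgn0039357; chromosome 3R, 25679242 to 25680550, BDGP6.54) was measured at 144, 159, 199, 191 and 166 normalised counts in the I172G libraries and at 121, 121, 90.4, 117 and 112 in the SAMC-null libraries. Every I172G library lay above every SAMC-null library, and the log2 fold change was 0.60 ± 0.12 (SE; limma, adjusted p = 0.000409). With equal summed values it was -0.03, with an adjusted p of 0.834, so the direction depends on the scale. Control libraries averaged 125 ± 20.2 and P223L libraries 207 ± 24.6 (SD, n = 5). A frameshift and a stop codon change the protein and need not change the transcript level, so these values do not check the label.

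The enzymes that make and recycle SAM differed in both directions. Of 14 genes of the methionine cycle and transsulfuration, 9 were higher and 4 lower in I172G, with a median log2 fold change of 0.40. With equal summed values, 4 were higher and 8 lower, with a median of -0.23. Sam-S, the SAM synthetase (FBgn0005278; chromosome 2L, 106903 to 114432), was measured at 7892, 7720, 7877, 8302 and 8890 in I172G and at 28671, 29240, 28018, 28186 and 28412 in SAMC-null. The groups were far apart, at a log2 fold change of -1.81 ± 0.044 (limma, adjusted p = 2.09e-12). The control mean of 15522 ± 2590 lay between the lines, and the P223L mean was 22155 ± 821 (SD, n = 5). Cbs, cystathionine beta-synthase, which takes homocysteine into cysteine synthesis, stood at 718, 745, 721, 672 and 501 in I172G and at 3787, 3760, 3533, 3666 and 3561 in SAMC-null. It was also lower in I172G without overlap, by -2.46 ± 0.093 (adjusted p = 8.19e-11). Control libraries averaged 1006 ± 108, above I172G and below SAMC-null.

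Genes that remake methionine from homocysteine went the other way. Bhmt (FBgn0032727; chromosome 2L, 18955481 to 18957311), named for betaine-homocysteine methyltransferase, was measured at 1734, 1685, 1652, 1874 and 2042 in I172G and at 692, 563, 619, 669 and 594 in SAMC-null. It was higher in every I172G library, by 1.52 ± 0.072 (limma, adjusted p = 7.56e-10), and the control mean was 943 ± 104. CG10621, a predicted methyltransferase of the same reaction that was chosen after its values were seen, was at 6076, 8221, 6042, 6503 and 5671 in I172G and at 2004, 1689, 1955, 2127 and 2218 in SAMC-null. Control and P223L means of 1893 ± 1132 and 1912 ± 30.6 lay near SAMC-null for this gene. Cth, cystathionine gamma-lyase, the step after Cbs, was higher in I172G by 1.13 ± 0.059, at 4658 ± 352 against 2121 ± 122 (SD, n = 5). The sole member that did not pass the test was Ahcy, which splits S-adenosylhomocysteine, at -0.14 (adjusted p = 0.184).

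**Figure D2:**
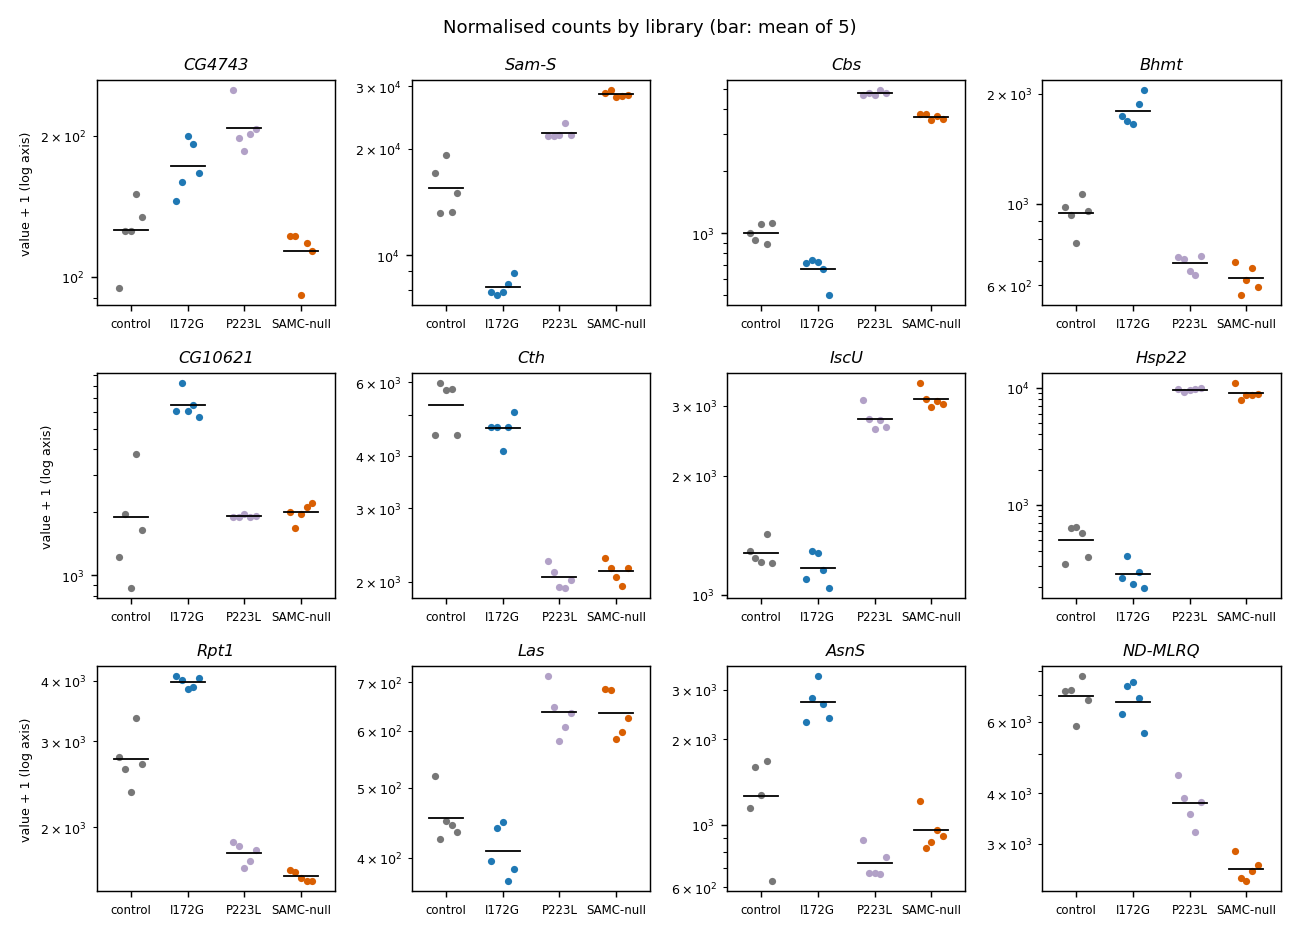
Normalised counts plus 1 of 12 genes in each library of the 4 groups, on a log axis; points are libraries and bars are means of 5. Sam-S, Cbs, IscU and Hsp22 are lower in every I172G library than in every SAMC-null library, while Bhmt, CG10621, Rpt1 and AsnS are higher.

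Enzymes that use SAM inside mitochondria were lower in I172G or did not pass. Of 6 such genes, 4 were lower and 2 did not pass, with a median of -0.54, and all 6 were lower with equal summed values. Las, lipoic acid synthase (FBgn0029158; chromosome 3L, 20430605 to 20432361), was measured at 395, 438, 447, 371 and 385 in I172G and at 684, 683, 582, 597 and 623 in SAMC-null. The groups did not overlap, and the log2 fold change was -0.64 ± 0.072 (limma, adjusted p = 3.16e-06). Coq5, a methyltransferase of coenzyme Q synthesis, differed by -0.59 ± 0.099, and mtTFB1, which methylates mitochondrial ribosomal RNA, by -0.49 ± 0.062. The fourth was rswl, at -0.71 ± 0.091. Coq3 and mtTFB2 did not pass, at 0.06 and 0.02.

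Transcripts of the mitochondrial genome differed little. Of 11 protein genes, 2 were higher in I172G and 4 lower, and the median was 0.02. With equal summed values 9 were lower and the others did not pass, with a median of -0.61. The range ran from mt:ND1, a complex I subunit, at 0.77 ± 0.072 (0.14 with equal summed values, adjusted p = 0.0528), to mt:ATPase8, an ATP synthase subunit, at -0.77 ± 0.094. The small ribosomal RNA mt:srRNA was lower in I172G, at -0.76 ± 0.17. The large ribosomal RNA mt:lrRNA averaged 1156102 ± 77899 in I172G and 1177392 ± 24434 in SAMC-null and did not pass (limma, adjusted p = 0.813), while with equal summed values it was lower in I172G, at -0.66 (adjusted p = 1.02e-06). The library preparation removed ribosomal RNA, and its part in this level was not tested.

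Nuclear genes of complex I, the first enzyme of the respiratory chain, were higher in I172G on the deposited scale but not with equal summed values. On the deposited scale this held for 32 of 33 tested members, with a median of 0.70, and 1 member, ND-51, was lower at -0.33 (chosen after its values were seen). On equal sums, 9 were higher and 10 lower, and the median was 0.06. ND-MLRQ (FBgn0052230; chromosome 3L, 23339326 to 23345936) was at 6264, 7380, 7514, 6872 and 5639 in I172G and at 2883, 2467, 2425, 2562 and 2648 in SAMC-null. Every I172G library was above every SAMC-null library, at 1.37 ± 0.078 (limma, adjusted p = 4.13e-09). ND-B14.5A differed by 1.26 ± 0.077, ND-B17 by 1.03 ± 0.064 and ND-AGGG by 0.98 ± 0.061. Of 73 mitochondrial ribosomal proteins, 11 were higher and 24 lower, with a median of -0.02. On equal sums, 66 were lower and the others did not pass. The member with the smallest adjusted p, mRpS5, had -0.80 ± 0.049.

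Iron-sulfur cluster assembly and mitochondrial protein quality control were lower in I172G. All 7 assembly genes were lower, with a median of -1.13. IscU, the scaffold on which clusters are built (FBgn0037637; chromosome 3R, 8822849 to 8824177), was at 1094, 1289, 1274, 1157 and 1039 in I172G and at 3422, 3122, 2983, 3090 and 3025 in SAMC-null. It did not overlap between the lines, at -1.42 ± 0.065 (limma, adjusted p = 4.76e-10), and the control mean of 1273 ± 91.9 was much nearer to I172G than to SAMC-null. Nfs1, which supplies the sulfur, differed by -1.13 ± 0.082, bcn92, its small partner, by -1.13 ± 0.066, and the ferredoxin Fdx2 by -0.92 ± 0.062. Of 11 mitochondrial chaperones and proteases, 9 were lower and 1 (ClpP, at 0.14) was higher, with a median of -0.88. ClpP was lower with equal summed values, where all 11 members were lower. Hsp22, a small heat shock protein of mitochondria (FBgn0001223; chromosome 3L, 9372931 to 9374964), stood at 237, 367, 208, 266 and 193 in I172G and at 10948, 7821, 8752, 8653 and 8840 in SAMC-null. This was the widest gap of the list, at -5.17 ± 0.15, and control libraries averaged 502 ± 157. The chaperone Trap1 differed by -0.88 ± 0.045, and the proteases Lon and Afg3l2 by -0.98 ± 0.06 and -0.92 ± 0.061.

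Proteasome subunits were higher in I172G as a whole list. All 32 subunits of the complex, which degrades tagged proteins in cytosol and nucleus, were higher, with a median of 1.27 and a range of 0.80 to 3.12. With equal summed values 31 were higher and 1 did not pass, at a median of 0.63. Rpt1, an ATPase of the regulatory particle (FBgn0028687; chromosome 2R, 7652440 to 7653954), was at 4084, 4012, 3836, 3876 and 4056 in I172G and at 1635, 1620, 1573, 1550 and 1552 in SAMC-null. The log2 fold change was 1.32 ± 0.035 (limma, adjusted p = 4.42e-12) without overlap, and the control mean of 2764 ± 363 lay between the lines. Rpt6 and Rpt2, ATPases of the same ring, differed by 1.38 ± 0.038 and 1.33 ± 0.037, and Rpn5, a subunit of the lid, by 1.27 ± 0.037.

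Cytosolic ribosomal proteins and the factors that build ribosomes went slightly the other way. Of 84 ribosomal protein genes, 63 were lower in I172G and 6 higher, with a median of -0.21. RpL5, RpL22 and RpL40 differed by -0.52 ± 0.049, -0.49 ± 0.039 and -0.48 ± 0.041, and RpL10Aa, a copy of RpL10A, was listed at 0 in every SAMC-null library and averaged 27.8 ± 7.25 in I172G. All 13 biogenesis genes were lower, with a median of -0.54. Myc, the growth regulator that drives such genes (FBgn0262656; chromosome X, 3373159 to 3391697), was at 2932, 3113, 2288, 2482 and 2928 in I172G and at 9638, 9942, 9823, 10182 and 9613 in SAMC-null. That is a log2 fold change of -1.85 ± 0.075 (limma, adjusted p = 1.7e-10), and the control mean was 3037 ± 318. Polr1B, a subunit of RNA polymerase I, differed by -0.88 ± 0.058.

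Genes of the amino acid stress response were split. Of 8 genes around the factor ATF4 (crc in flies), 4 were higher in I172G and 3 lower, with a median of 0.11 that became -0.52 with equal summed values. AsnS, asparagine synthetase (FBgn0041607), was at 2295, 2797, 3345, 2677 and 2387 in I172G and at 1207, 827, 869, 959 and 908 in SAMC-null. It was higher in I172G, at 1.50 ± 0.12 (limma, adjusted p = 7.17e-08), with control at 1265 ± 418. CG6287, of serine synthesis, differed by 1.18 ± 0.11. Thor, the translation inhibitor 4E-BP, and Gadd45, a stress-induced gene, were lower, at -2.25 ± 0.13 and -2.99 ± 0.1. The transcript of crc itself averaged 22367 ± 828 and 22473 ± 366 and did not pass (adjusted p = 0.863).

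Most genes of glycolysis and of mitochondrial fatty acid oxidation were higher in I172G. Of 12 glycolytic genes 11 were higher, with a median of 1.23, and Hex-A, the hexokinase at the head of the pathway, was lower at -1.89 ± 0.06. Pglym78, phosphoglycerate mutase (FBgn0014869; chromosome 3R, 29148248 to 29149901), was at 15345, 18334, 19530, 17848 and 17452 in I172G and at 4850, 4762, 4875, 4639 and 4522 in SAMC-null. The gap of 1.90 ± 0.058 (limma, adjusted p = 1.26e-11) left no overlap, and Tpi and Pgk, other glycolytic enzymes, differed by 1.24 ± 0.052 and 1.34 ± 0.057. Of 9 genes of mitochondrial fatty acid oxidation 8 were higher, among them Mtpalpha, of the trifunctional protein, at 1.00 ± 0.039, and scu, a dehydrogenase, at 1.36 ± 0.059. On equal sums, 7 were higher and 2 lower. In the tricarboxylic acid cycle 8 of 13 genes were higher and 2 lower, with a median of 0.46 that was -0.17 with equal summed values. Mdh2, malate dehydrogenase, had 1.26 ± 0.067.

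Genes of fat storage and synthesis differed in both directions. The list of 13 held 8 higher and 5 lower members, with a median of 0.51 (6 higher, 6 lower and -0.12 with equal summed values). The lipoprotein gene apolpp (FBgn0087002; chromosome 4, 1060969 to 1077273) was at 549312, 601938, 617158, 619751 and 589151 in I172G and at 81093, 66929, 70165, 76810 and 73856 in SAMC-null. This gave 3.01 ± 0.074 (limma, adjusted p = 2.38e-12), and the lipid transfer protein Mtp, the droplet protein Lsd-1 and the fatty acid synthase FASN2 differed by 1.93 ± 0.052, 1.84 ± 0.058 and 1.18 ± 0.04. Among the 5 lower members, named after their values were seen, bmm, a triglyceride lipase, had -1.76 ± 0.12, Lip4, a lipase-family gene, -1.90 ± 0.091, SREBP, a regulator of lipid synthesis, -1.22 ± 0.044, Lpin, a phosphatidate phosphatase, -0.95 ± 0.044, and Hsl, hormone-sensitive lipase, -0.89 ± 0.07.

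Genes of insulin signalling and of hunger were mostly lower in I172G. Of 15 such genes 11 were lower and 4 higher, with a median of -1.36. InR, the insulin receptor (FBgn0013984), was at 1347, 1310, 1518, 1345 and 1983 in I172G and at 19562, 21097, 21337, 20857 and 20745 in SAMC-null. The groups were far apart, at -3.80 ± 0.097 (limma, adjusted p = 3.24e-12), and the control mean of 1922 ± 504 was much nearer to I172G than to SAMC-null. ImpL2, a secreted protein that binds insulin-like peptides, differed by -2.85 ± 0.094, and chico, the substrate of the receptor, by -1.36 ± 0.054. AkhR, the receptor of the hormone that mobilises stored fuel, was higher, at 1089 ± 110.4 against 282 ± 22 (SD, n = 5), or 1.94 ± 0.078.

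**Figure D3:**
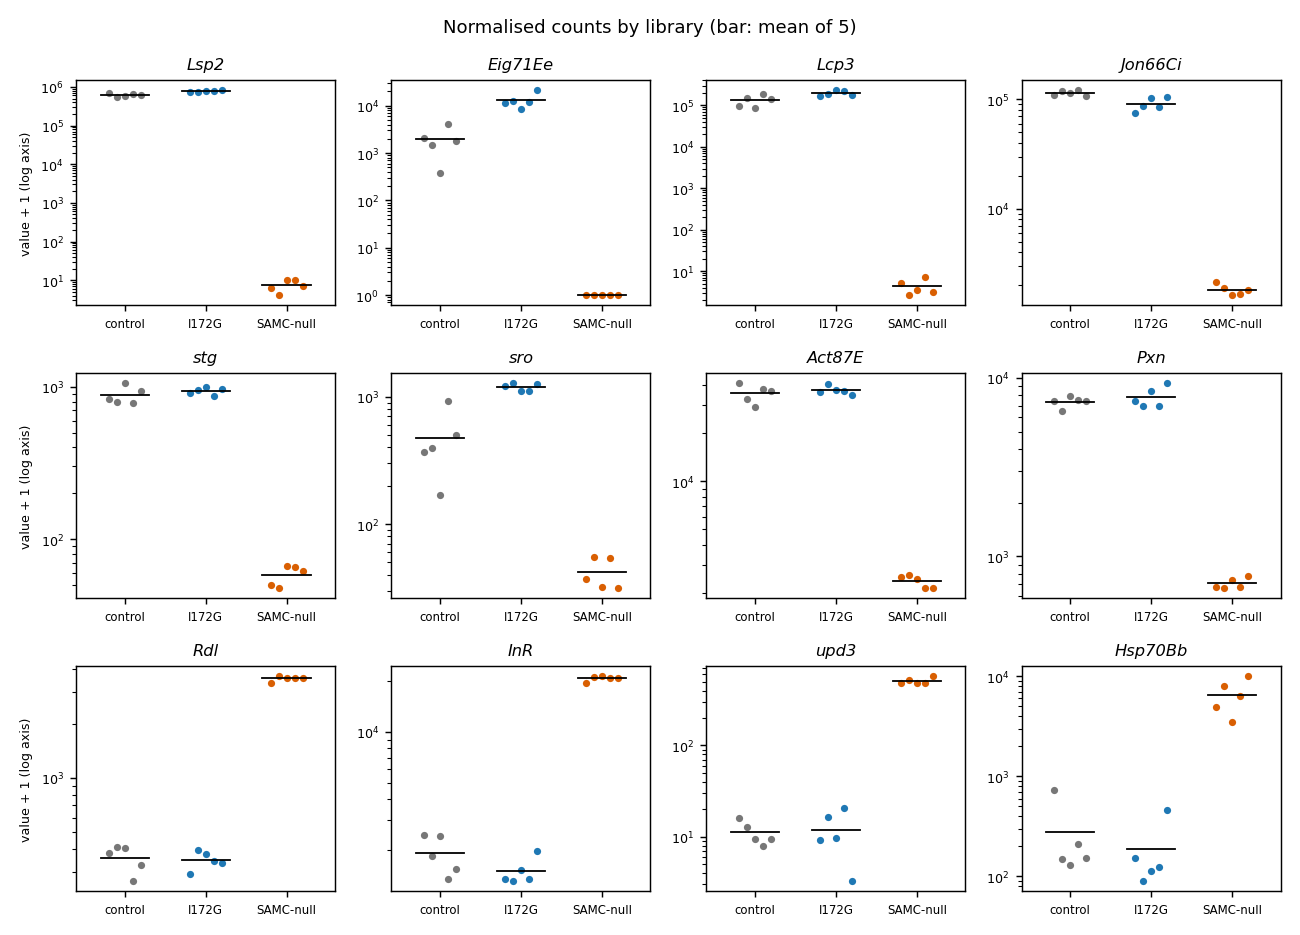
Normalised counts plus 1 of 12 genes in each control, I172G and SAMC-null library, on a log axis; points are libraries and bars are means of 5. For all 12 genes, I172G and SAMC-null libraries do not overlap. They were picked from genes named for small adjusted p, and 73.5% of all tested genes did not overlap.

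The widest gaps were in proteins that mark late larval life. The larval serum proteins are amino acid stores made by the fat body and released into the blood. All 6 genes of this list were higher in I172G, with log2 fold changes of 12.84 to 17.70. Of these, 2 (Lsp2 and Fbp1) reached the filter through I172G alone and could be called in 1 direction only. Lsp1alpha, Lsp1beta and Fbp2 reached 10 in only 1 SAMC-null library each, at 15.9, 40.6 and 10.5. They too needed the I172G libraries to pass the filter, so much the same limit applies to them. Lsp1gamma, which reached 10 in every library of both lines, averaged 1409882 ± 74570 in I172G and 195.3 ± 42.6 in SAMC-null (SD, n = 5). Its log2 fold change was 12.84 ± 0.12 (limma, adjusted p = 7.26e-15). Lsp2 (FBgn0002565; chromosome 3L, 12129393 to 12131869) was at 726368, 757484, 805578, 779874 and 816836 in I172G and at 5.12, 3.12, 9.3, 9.37 and 5.99 in SAMC-null. The log2 fold change was 16.73 ± 0.21 (limma, adjusted p = 2.95e-14), and with pseudocounts of 0.5 and 4 it was 16.8 and 16.2. Control libraries averaged 610563 ± 65088, much nearer to I172G than to SAMC-null. Fbp1, the receptor through which the fat body takes these proteins up again (FBgn0000639; chromosome 3L, 14094589 to 14098053), was at 187036, 149728, 103830, 145645 and 393563 in I172G and at 1.59, 0, 0, 1.69 and 2.54 in SAMC-null. Fbp1 also did not overlap between the lines, at 16.50 ± 0.41 (limma, adjusted p = 2.84e-12). Control libraries averaged 42569 ± 39356 for this gene, and the highest of them, at 105170, was above the lowest I172G library.

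Salivary glue genes had means of 0 to 26.4 in SAMC-null. Glue fixes the pupa to its support and is made before metamorphosis. All 8 glue genes passed as higher in I172G, of which 6 reached the filter through I172G alone and 3 (Eig71Ee, Sgs5 and Sgs5bis) were listed at 0 in every SAMC-null library. Eig71Ee (FBgn0004592; chromosome 3L, 15654472 to 15656010) was at 11423, 12479, 8514, 12160 and 21182 in the I172G libraries, and control libraries averaged 1978 ± 1361. Sgs7 (FBgn0003377; chromosome 3L, 11509861 to 11510247) was at 13917, 18054, 13631, 18519 and 39826 in I172G and at 0.812, 0.789, 0, 0 and 3.29 in SAMC-null. No fold is given for a gene at 0 in a group, and for Sgs7 the fit gave 13.46 ± 0.4 (limma, adjusted p = 9.56e-12).

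Cuticle genes split by family. Of 14 tested larval cuticle proteins of the Lcp family, 10 were higher in I172G and 2 lower, and 5 reached the filter through I172G alone. Lcp3 (FBgn0002534; chromosome 2R, 8435310 to 8436095) was at 172120, 187169, 231477, 217262 and 179605 in I172G and at 4.31, 1.67, 2.46, 6.27 and 2.09 in SAMC-null. The log2 fold change was 15.56 ± 0.23 (limma, adjusted p = 6.49e-14), and Lcp9, Lcp1 and Lcp4 had 14.58 ± 0.27, 12.41 ± 0.15 and 10.82 ± 0.12. Lcp3 and Lcp9 were among the members that passed through I172G alone, so they could be called in 1 direction only. The lower members, chosen after their values were seen, were Lcp65Ag3, at -3.72 ± 0.36, and Lcp65Ag2, at -0.86 ± 0.27; near-identical copies such as Lcp65Ab1 and Lcp65Ab2 may share reads. Of 48 tested Cpr genes 30 were higher and 14 lower, 5 having reached the filter through I172G alone and 4 through SAMC-null alone, with a median of 1.86. Of 15 tested Tweedle genes 9 were lower and 4 higher, with a median of -1.23, and 4 reached the filter through SAMC-null alone and 1 through I172G alone. TwdlN (FBgn0039441; chromosome 3R, 26631869 to 26632956) was at 6, 9.15, 9.67, 3.27 and 2.26 in I172G and at 1393, 1650, 1298, 1886 and 1223 in SAMC-null. TwdlN passed the filter through SAMC-null alone and could be called in 1 direction only. Its log2 fold change was -7.85 ± 0.3 (limma, adjusted p = 1.05e-10), while TwdlX, of the same family, was higher in I172G, at 3.62 ± 0.094.

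Tanning genes differed between the lines and also within I172G, where replicate 1 stood apart. Of 7 genes 2 were higher and 1 lower, with a median of 0.54, and with equal summed values 1 was higher and 2 lower, with a median of -0.09. The gene y, needed for black pigment, was lower, at a level of 6.76 ± 4.17 against 1009 ± 63 and a log2 fold change of -7.19 ± 0.3, and t and Dat were higher, at 1.84 ± 0.11 and 0.54 ± 0.049 (-0.09 for Dat with equal sums). The genes that did not pass were b, e, ple and Ddc. The gene b, of beta-alanine synthesis, was at 2251, 19.6, 35.5, 33.6 and 33.8 in I172G and at 7.9, 28.5, 23.7, 26.9 and 10.1 in SAMC-null. The gene ple, tyrosine hydroxylase, which was chosen after its values were seen as were e and Ddc, was at 16544, 681, 561, 547 and 544 in I172G and at 923, 1343, 1192, 1260 and 1236 in SAMC-null. In both genes I172G replicate 1 was far above the other I172G libraries. The gene e, which joins beta-alanine to dopamine, had 6692 in that library and 31.7 to 64.8 in the others, and Ddc, dopa decarboxylase, had 2739 and 349.5 to 592. Averaged over the list, the log2 level was 10.24 in I172G replicate 1, 7.07 to 7.23 in the other I172G libraries and 7.83 to 8.34 in SAMC-null. Without I172G replicate 1, 2 genes were higher and 3 lower, at a median of 0.07, and ple and Ddc passed as lower in I172G, at -1.02 ± 0.11 and -1.19 ± 0.15 (limma, adjusted p = 3.03e-06 and 2.02e-05).

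Genes of ecdysone synthesis were higher in I172G. The enzymes of this pathway work in the prothoracic gland. Of 13 genes 11 were higher and 2 lower, with a median of 1.77, and 2 reached the filter through I172G alone. The synthesis gene sro (FBgn0262112; chromosome 3R, 29794597 to 29795805) was at 1214, 1276, 1113, 1103 and 1265 in I172G and at 35.9, 54.1, 30.7, 53.1 and 30.4 in SAMC-null. It did not overlap, at 4.88 ± 0.16 (limma, adjusted p = 2.8e-11), and control libraries ran lower than I172G, with a mean of 469.9 ± 278. The enzymes sad, phtm and spok had 4.04 ± 0.14, 2.45 ± 0.11 and 3.79 ± 0.19. The lower members, named after their values were seen, were Ptth, the brain hormone that triggers synthesis, at -2.09 ± 0.2, and the transcription factor mld, at -0.54 ± 0.066.

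Receptors and targets of ecdysone and juvenile hormone were mixed. In the ecdysone response 8 of 16 genes were higher in I172G and 6 lower, with a median of 0.32 (-0.31 with equal summed values). I172G replicate 1 stood apart here too, with a mean log2 level over the list of 10.30, against 8.84 to 9.22 in the other I172G libraries and 8.98 to 9.09 in SAMC-null. Without it 8 genes were higher and 6 lower, at a median of 0.29. Eip78C, a nuclear receptor gene chosen after its values were seen, was at 1516, 45.7, 52.8, 37.4 and 58.9 in I172G and at 447, 429, 499.8, 473 and 471 in SAMC-null. It was lower in I172G with all libraries, at -2.25 ± 0.82 (limma, adjusted p = 0.0222), and at -3.24 ± 0.12 without replicate 1 (adjusted p = 4.45e-10). The target gene ImpE2, chosen in the same way, had 1645 in that library and 9.71 to 111 in the other I172G libraries, against 17.5 to 32 in SAMC-null. The early genes Eip74EF and br, both transcription factors, were higher, at 2.42 ± 0.093 and 2.21 ± 0.11, while Eip75B, a nuclear receptor, and ftz-f1, a competence factor, were lower, at -1.50 ± 0.076 and -1.20 ± 0.056. In the juvenile hormone list the epoxide hydrolases Jheh1, Jheh2 and Jheh3, which break the hormone down, had 2.41 ± 0.12, 3.24 ± 0.12 and 1.49 ± 0.056, and the receptor gene Met had -1.23 ± 0.063. That list held 4 higher and 4 lower members of 8, and its median moved from 0.55 to -0.08 with equal summed values.

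Markers of several tissues differed between the lines, and their levels are given here because whole larvae mix tissues. Digestive enzymes were mostly higher in I172G, with 34 of 47 higher and 10 lower and a median of 1.67. Of the lower members 5 were lower by at least 2-fold, and the lowest log2 fold change of the list was -4.47. With equal summed values 30 were higher and 16 lower. The protease gene Jon66Ci (FBgn0035886; chromosome 3L, 8391540 to 8392377) was at 75462, 86086, 102251, 85931 and 104111 in I172G and at 2150, 1884, 1619, 1647 and 1790 in SAMC-null. All I172G libraries were higher, at 5.64 ± 0.098 (limma, adjusted p = 2.02e-13), Jon65Aii had 6.17 ± 0.12 and the lipase gene mag 3.56 ± 0.073. Of 16 muscle genes 15 were higher and 1 did not pass. Act87E, a muscle actin (FBgn0000046; chromosome 3R, 13425983 to 13428375), was at 35935, 40707, 36982, 36582 and 34566 in I172G and at 2526, 2598, 2438, 2159 and 2152 in SAMC-null. All Act87E values were higher in I172G, at 3.96 ± 0.064. The list as a whole had a median of 1.64 and a mean log2 level of 15.30 to 15.60 in the I172G libraries and 13.59 to 13.72 in the SAMC-null libraries. Actin copies may share reads.

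Blood cell genes were higher in I172G and neuronal genes lower. Of 12 hemocyte genes 11 were higher and 1 did not pass, with a median of 1.81, and with equal summed values 8 were higher and 4 (eater, vkg, srp and Col4a1) lower. Pxn, an extracellular matrix peroxidase of these cells (FBgn0011828; chromosome 3L, 2601455 to 2630064), was at 7376, 6966, 8395, 6983 and 9334 in I172G and at 674, 665, 739, 677 and 780.5 in SAMC-null. The groups lay apart, at 3.46 ± 0.083 (limma, adjusted p = 1.89e-12), and the clotting gene Hml had 2.07 ± 0.07 and the prophenoloxidase genes PPO1 and PPO2 4.17 ± 0.17 and 3.84 ± 0.16. Of 13 neuronal genes 12 were lower and 1 did not pass, with a median of -2.77. Rdl, a receptor for the transmitter GABA (FBgn0004244; chromosome 3L, 9145838 to 9182149), was at 289, 394, 376, 343 and 333 in I172G and at 3377, 3667, 3603, 3573 and 3599 in SAMC-null. The gap was -3.37 ± 0.073 (adjusted p = 1e-12), the control mean of 356 ± 61.1 was much nearer to I172G, and VGlut, Gad1 and nSyb, of transmitter loading, synthesis and release, had -2.77 ± 0.052, -2.94 ± 0.061 and -2.93 ± 0.068. Averaged over the neuronal list, the log2 level was 8.91 to 8.99 in I172G and 11.17 to 11.28 in SAMC-null. Syt1, a synaptic calcium sensor, was the member that did not pass, at 0.03 (adjusted p = 0.594).

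Genes of dividing cells were higher in I172G. The list of replication and cell cycle genes had 24 members, of which 23 were higher and 1 did not pass, with a median of 2.29. The gene stg, the phosphatase that admits cells to mitosis (FBgn0003525; chromosome 3R, 29251826 to 29255800), was at 913, 955, 1003, 869 and 969.5 in I172G and at 49.4, 46.8, 65.7, 64.6 and 60.4 in SAMC-null. Every I172G library was higher, at 4.03 ± 0.1 (limma, adjusted p = 3.33e-12), and the control mean was 881 ± 114. CycA, a mitotic cyclin, had 2.73 ± 0.069, polo, a mitotic kinase, 3.72 ± 0.12, and dup, which licenses replication, 2.26 ± 0.068. Of 90 tested histone genes 69 were higher and 1 lower, 5 of them having reached the filter through I172G alone, but their copies are near-identical and share reads, so these are not separate measurements. Disc patterning genes did not lean as far, with 11 of 16 higher and 4 lower, and a median of 0.33. With equal summed values 4 were higher and 10 lower, and the median was -0.30. On the deposited scale only 4 members were higher by at least 2-fold, and the lowest log2 fold change of the list was -0.55. Among those 4 were ap, eya and Dll, transcription factors that pattern discs, at 1.59 ± 0.088, 2.03 ± 0.12 and 1.97 ± 0.12.

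Most testis genes and the yolk genes were near 0 in SAMC-null. Of 25 testis genes 21 were higher in I172G and 1 was lower, and 20 of the 25 reached the filter through I172G alone, so they could be called in 1 direction only. A total of 10 were listed at 0 in every SAMC-null library. The members at like levels in both lines, named after their values were seen, were mia, S-Lap1 and sa, which did not pass at 0.14, 0.11 and -0.01, and fzo, a mitochondrial fusion gene, at -0.29 ± 0.099. The testis peptidase gene S-Lap3 (FBgn0045770; chromosome 3L, 10465187 to 10468974) was at 917, 432, 529.5, 615 and 741 in I172G and at 1.69, 0.829, 0.67, 0 and 0 in SAMC-null, and betaTub85D, the tubulin of the male germline, averaged 615 ± 171.6 against 11.9 ± 1.38 (SD, n = 5). Their log2 fold changes were 8.68 ± 0.3 and 5.54 ± 0.18 (limma). The mean log2 level of the list was 6.40 to 7.38 in I172G and 1.78 to 1.90 in SAMC-null. The share of males per library is not given in the labels used here, and its part in these values was not tested. Yp3, a yolk protein gene (FBgn0004047; chromosome X, 13759546 to 13761547), was at 4675, 8930, 5276, 4503 and 4544 in I172G and at 5.88, 4.04, 4.88, 14.3 and 12.5 in SAMC-null. All 3 yolk genes were higher in I172G, of which 2 reached the filter through I172G alone, with Yp1, Yp2 and Yp3 at 6.41 ± 0.46, 7.83 ± 0.35 and 9.32 ± 0.31. Of 5 tested germ cell genes 1 was higher (bgcn, at 2.16 ± 0.18) and 3 were lower, among them AGO3 at -1.17 ± 0.14.

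Heat shock genes were lower in I172G. Of 13 cytosolic heat shock genes 9 were lower and 2 higher, with a median of -1.76, and with equal summed values none passed as higher. Hsp70Bb, a stress-induced chaperone (FBgn0013278; chromosome 3R, 12505793 to 12508139), was at 150.4, 89.3, 112, 124 and 456 in I172G and at 4898, 8000, 3456, 6300 and 10016 in SAMC-null. No I172G library reached the lowest SAMC-null library, at -5.31 ± 0.4 (limma, adjusted p = 6.51e-08), and Hsp70 copies may share reads. Hsc70-4, the constitutive chaperone, averaged 70518 ± 3296 and 145866 ± 2963, or -1.05 ± 0.053. The 2 higher members were Hsp27, a small heat shock protein, at 1.29 ± 0.31, and Hsp83, at 0.61 ± 0.14 (named after their values were seen).

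Genes of tissue damage and immune peptides were mostly lower in I172G. Of 9 damage genes 7 were lower and 2 higher, with a median of -0.88. The cytokine gene upd3 (FBgn0053542; chromosome X, 18277233 to 18284596) was at 8.12, 15.3, 8.69, 19.7 and 2.27 in I172G and at 487, 524, 484, 488 and 574 in SAMC-null. All I172G libraries were lower, at -5.68 ± 0.39 (limma, adjusted p = 2.39e-08), and Ets21C, a transcription factor of stressed cells, and puc, the feedback phosphatase of the JNK pathway, had -5.07 ± 0.23 and -2.19 ± 0.046. The death ligand gene egr was higher in I172G, at 1.23 ± 0.092. Of 14 tested antimicrobial peptide genes 10 were lower and 3 higher, with a median of -1.42. DptA and DptB, Dro and BaraA1 had -3.47 ± 0.28, -3.28 ± 0.37, -2.13 ± 0.22 and -4.42 ± 0.52. The 3 higher members were all higher by at least 2-fold, and the highest log2 fold change of the list was 5.00. Of the 14 genes, 2 reached the filter through I172G alone. The stress gene TotA (FBgn0028396; chromosome 3R, 20871036 to 20871700) was the reverse, at 3866, 2733, 3996, 4228 and 7161 in I172G and at 1.55, 0.775, 0.737, 0 and 0 in SAMC-null, a difference of 11.44 ± 0.3, and control libraries averaged 4297 ± 1567. TotC, the other tested gene of this family, had 3.75 ± 0.49, and both reached the filter through I172G alone.

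For lists of detoxification, proton transport and odorant binding, the sign of the median depended on the scale. Of 79 cytochrome P450 genes 42 were higher in I172G and 29 lower (4 reached the filter through I172G alone), at a median of 0.31 (-0.32 with equal summed values). Cyp4d1 had the smallest adjusted p of the list (limma, 4.74e-13), at 15336 ± 1687 against 608 ± 75.2, or 4.66 ± 0.09. Glutathione S-transferases gave 14 higher and 12 lower of 34, with a median of 0.12 (-0.51), with GstE12 at 2.27 ± 0.036 and GstE8 at -2.03 ± 0.11. V-ATPase subunits, of the proton pump, gave 16 higher and 6 lower of 28, of which 3 reached the filter through I172G alone, with a median of 0.18 (-0.46). Odorant-binding proteins gave 9 higher and 8 lower of 19, with a median of 0.28 (-0.78). The family's most different member, Obp99b (FBgn0039685; chromosome 3R, 29716254 to 29716896), was at 179595, 171846, 182825, 187777 and 214765 in I172G and at 0.805, 0.776, 1.54, 0.84 and 3.36 in SAMC-null, or 16.30 ± 0.21.

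**Figure D4:**
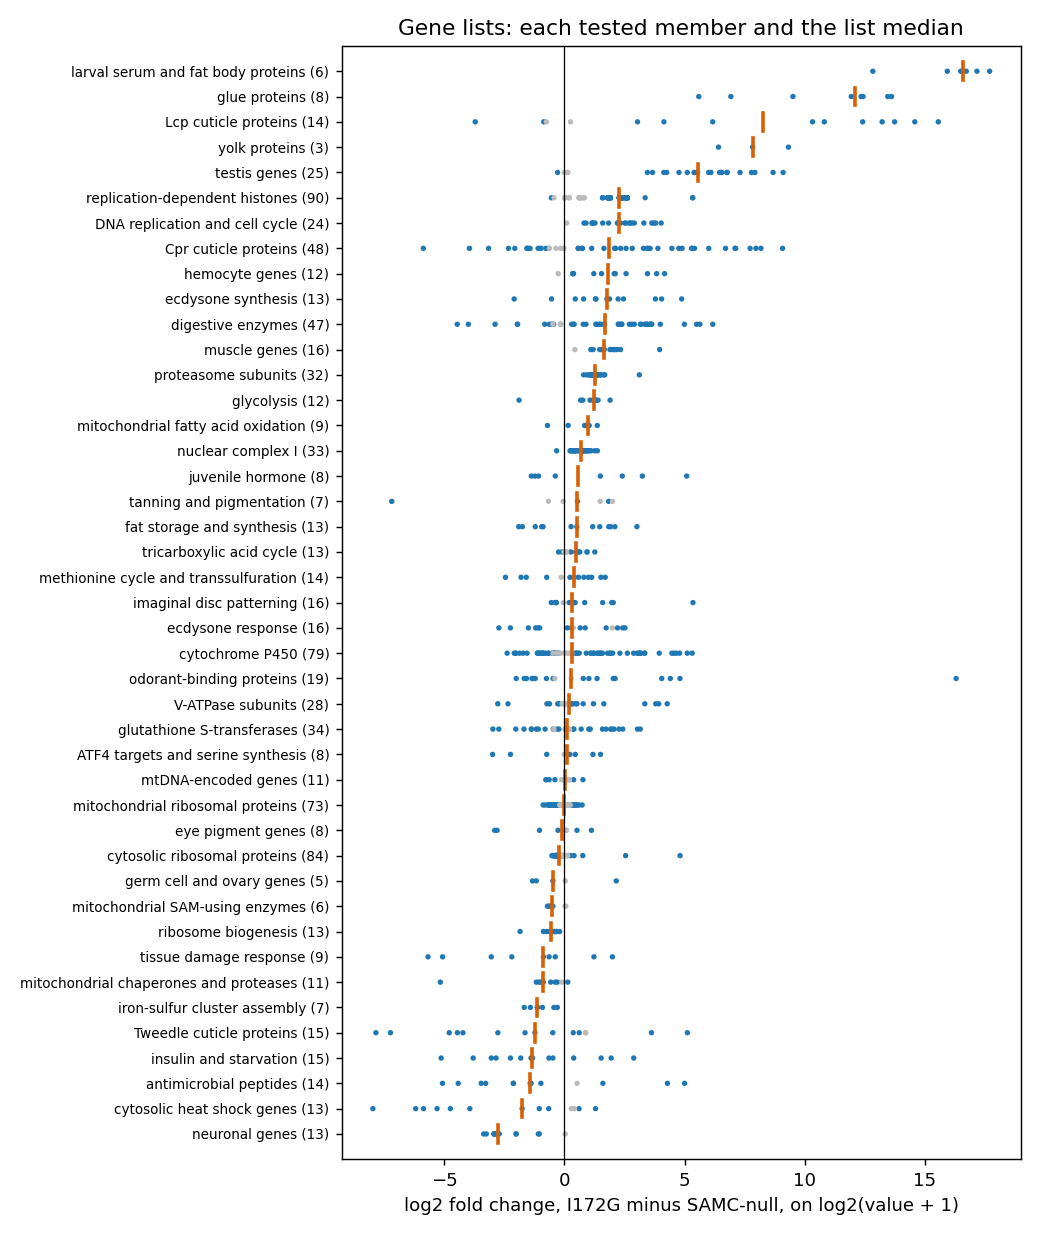
Log2 fold change, I172G minus SAMC-null, of each tested member of the gene lists with at least 3 tested members; blue points passed an adjusted p of 0.05, grey points did not, and the orange mark is the list median. Larval serum and glue proteins lie at the top, neuronal and cytosolic heat shock genes at the bottom.

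The largest increases and decreases were taken among genes with a mean of at least 50 over the 10 libraries, and both held cuticle genes. The 15 largest increases with groups apart were Lsp1alpha, Lsp1beta, Lsp2, Fbp1, Obp99b, Fbp2, Lcp3, Lcp9, CG17105, Lcp65Ab1, Eig71Ee, Sgs7, Lcp2, Lsp1gamma and Sgs5. All but Lsp1alpha, Lsp1beta, Fbp2, Lcp65Ab1 and Lsp1gamma reached the filter through I172G alone and could be called in 1 direction only. Among these exceptions, only Lsp1gamma reached 10 in every SAMC-null library. CG17105, the member with no name-based role here, averaged 28973 ± 5502 in I172G and 1.01 ± 1.48 in SAMC-null. The 15 largest decreases were BomS6, CG12480, CG13135, CG42815, mthl8, CG32188, phu, Hsp70Bc, TwdlN, CG32189, CG13170, Bace, TwdlO, y and CG14452. Of these, all but Hsp70Bc, Bace, TwdlO and y reached the filter through SAMC-null alone, with the same limit. Among those exceptions, only Bace reached 10 in every I172G library. The mthl8 gene, a G protein-coupled receptor gene of the methuselah family (FBgn0052475; chromosome 3L, 22428 to 26308), was listed at 0 in all I172G libraries and was at 336, 337, 414, 308 and 313 in SAMC-null. Control libraries averaged 190.4 ± 95.6 and P223L libraries 1.04 ± 1.32. CG42815 was listed at 0 in I172G and control and averaged 410.0 ± 52.5 in SAMC-null. Bace, an aspartyl protease gene (FBgn0032049; chromosome 2L, 8494893 to 8496307), was at 56, 75.7, 98, 80.4 and 288 in I172G and at 13287, 18043, 14760, 15796 and 16382 in SAMC-null, a log2 fold change of -7.28 ± 0.34 (limma, adjusted p = 5.49e-10).

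Eye pigment genes and genes near the carrier gene were examined for differences between the strains. Of 8 eye pigment genes 2 were higher in I172G and 4 lower, with a median of -0.10. The transporter gene w, which also marks many transgenes (FBgn0003996; chromosome X, 2790599 to 2796466), was at 194, 173, 179, 191 and 599 in I172G and at 1508, 2169, 824, 1878 and 2310 in SAMC-null. The groups did not overlap, at -2.81 ± 0.36 (limma, adjusted p = 1e-05), and control libraries averaged 10.8 ± 8.59. The pigment gene cn, at -2.91 ± 0.17, differed as much. Of 649 tested genes within 3 Mb of the carrier gene, 151 (23.27%) were higher by at least 2-fold and 130 (20.03%) lower, against 2673 (23.84%) and 1922 (17.14%) of 11214 placed elsewhere.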

How the data were processed

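RNA of whole larvae, depleted of ribosomal RNA, was sequenced as 75-base read pairs, per the labels' protocols. Salmon 0.11.3, DESeq2 1.26.0 and the BDGP6 build are named in the submitters' processing notes. Each deposited table sets a line beside control and has a signal column for every library: a normalised count per gene made by the authors on a shared scale. Control values differ between the tables by at most 0.005. They also hold the authors' deposited log2 fold changes against control, which served as an alternative only.

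The I172G and SAMC-null columns were joined by gene identifier. Values are not whole reads, so no count test was used. Genes reaching 10 in 5 or more of the 10 libraries entered limma 3.58.1 (R 4.3.3) as log2(value + 1) with an intensity trend; two-sided p-values were Benjamini-Hochberg adjusted across them, at a threshold of 0.05. The fit was tested on simulated data in which far fewer genes differed than were called here. No scale shift between the groups was simulated, so that test does not bear on the choice of scale. Positions and symbols come from Ensembl release 115 (13854 of 14081 genes matched). The 46 gene lists and the genes compared were chosen with earlier results of these data known. Of the names in the lists, 9 were not matched and are not used. Genes named were CG4743, the 15 largest increases and decreases (mean of at least 50, groups apart), up to 4 members per list with the smallest adjusted p, and others said to be chosen later. Exceptions within a list, and members that did not pass, were also chosen after their values were seen. No sequence is printed, as no sequence table was used here. Alternatives were pseudocounts of 0.5 and 4, no filter, a filter of 50, 2 rescalings, each library left out, a replicate block, a joint fit of the 4 groups, no trend, and limma's treat beyond 2-fold. Figures were drawn with matplotlib 3.10.9 (Python 3.11.15) after pandas 2.3.3 and numpy 2.4.6 had arranged the values. The values give no depth in reads, so no counting interval is given.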

Additional observations from a re-analysis of the deposited data

Results flagged for a closer look

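In a group of 5 libraries, a gene was marked when the gap between its highest or lowest library and the nearest other, on the log2 scale, was over 0.71 of the group's range. Among the genes named in the report this marked 23 of 355 gene and group pairs, where chance alone marks about 1 in 20. Some of the genes, among them ple, e, Ddc and Eip78C, were named after their values were seen. The number marked therefore cannot be weighed against chance. The normalised counts of the marked pairs are given with no weighing of causes. CG13135 was at 1862 in SAMC-null replicate 2, while the others lay between 843 and 1041. In SAMC-null replicate 2, CG17105 stood at 3.63, against 0 to 0.494 in the rest of the group. For CG4743, SAMC-null replicate 3 held 90.4 and the other libraries 112 to 121. Cbs was at 501 in I172G replicate 5, while the others lay between 672 and 745. In I172G replicate 1, Ddc stood at 2739, against 349.5 to 592 in the rest of the group. For Eip78C, I172G replicate 1 held 1516 and the other libraries 37.4 to 58.9. Hsl was at 1300 in SAMC-null replicate 5, while the others lay between 1404 and 1447. In SAMC-null replicate 1, ImpL2 stood at 6043, against 6755 to 6868 in the rest of the group. For Jheh2, SAMC-null replicate 1 held 821 and the other libraries 698 to 711. Jon65Aii was at 27143 in I172G replicate 5, while the others lay between 18948 and 20965. In I172G replicate 4, Lpin stood at 4720, against 4958 to 5040 in the rest of the group. For Lsp1beta, SAMC-null replicate 4 held 40.6 and the other libraries 3 to 5.38. Sgs7 was at 39826 in I172G replicate 5, while the others lay between 13631 and 18519. In I172G replicate 5, Trap1 stood at 1050, against 1176 to 1198 in the rest of the group. For Yp3, I172G replicate 2 held 8930 and the other libraries 4503 to 5276. b was at 2251 in I172G replicate 1, while the others lay between 19.6 and 35.5. In I172G replicate 1, crc stood at 20901, against 22610 to 22881 in the rest of the group. For e, I172G replicate 1 held 6692 and the other libraries 31.7 to 64.8. mRpS5 was at 3400 in SAMC-null replicate 1, while the others lay between 2891 and 3008. In SAMC-null replicate 2, mt:lrRNA stood at 1134159, against 1182338 to 1192095 in the rest of the group. For ple, I172G replicate 1 held 16544 and the other libraries 544 to 681. puc was at 1235 in I172G replicate 2, while the others lay between 1061 and 1100. In I172G replicate 5, w stood at 599, against 173 to 194 in the rest of the group.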

How the results depend on the processing

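The counts of genes moved with the scale and with the size of difference tested. With each library brought to the same sum, 3044 genes were higher in I172G and 7539 lower (1899 and 4043 by at least 2-fold), in place of 5211 and 4796 (2870 and 2076). Testing for a difference beyond 2-fold with limma's treat gave 2370 higher and 1543 lower. Median-ratio rescaling shifted log2 fold changes by -0.00888 and left 51.7% of calls higher. Leaving out each library in turn gave 5108 to 5238 higher and 4664 to 4779 lower genes, and 2840 to 2889 and 2058 to 2081 by at least 2-fold. With no filter the counts were 5761 and 5091, and with a filter of 50 they were 4272 and 4380.

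With equal sums, list medians changed sign for the methionine cycle (-0.232), mtDNA-encoded genes (-0.61), ATF4 targets (-0.524), the tricarboxylic acid cycle (-0.174), fat storage (-0.121), the ecdysone response (-0.31), juvenile hormone (-0.0795), tanning (-0.0931), V-ATPase (-0.455), imaginal discs (-0.3), cytochrome P450 (-0.32), glutathione S-transferases (-0.514) and odorant-binding proteins (-0.784). Of the genes named by rule and called on either scale, those that changed sign were CG4743 (-0.0263), Dat (-0.0931), mt:CoII (-0.253), p (-0.112) and Scsalpha1 (-0.113). Among other genes named, ClpP, Col4a1, Coq3, Hsp83, mia, mtTFB2, S-Lap1, srp, Syt1 and vkg changed sign too. The call was lost for mt:ND1 (adjusted p = 0.0528, limma) and gained for mt:lrRNA (1.02e-06). Without I172G replicate 1, tanning had 2 genes higher and 3 lower in place of 2 and 1, while the ecdysone response again had 8 and 6.

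Replicate numbers did not pair the libraries: same-numbered libraries deviated together with r of -0.0766 to 0.0356. Fitted with a replicate block, 5145 genes were higher and 4693 lower, and every named gene kept its call. With all 4 groups in 1 fit, aub lost its call (adjusted p = 0.0539) and b gained one (0.0324, limma). The labels name no batch. Precision is limited by 5 libraries per line, and values near 0 in 1 line give log2 fold changes that depend on the pseudocount.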
